A study of Mus musculus with 35 samples.

Results

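The cytosolic ribosomal protein genes encode the proteins of the ribosome that translates nuclear-encoded messages. They were taken from the gene table by symbol: Rpl or Rps followed by a number and, where present, the letter a or x, together with Rplp0, Rplp1, Rplp2 and Rpsa. The rule found 76 of the 19085 gene entries, 46 of the large subunit and 30 of the small subunit. Pseudogenes and paralogs with other name endings were not included. Rps3a1 and Rack1, which also belong to the ribosome, and Fau, which encodes one of its proteins as a fusion, fall outside the rule and are given separately.

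The data are single-cell RNA-seq read counts of 35 mouse embryonic fibroblasts of the C57Bl/6J strain, kept at 3% oxygen. All cells had received a dose of 1 Gy, were plated on membrane dishes 32 h later, and were stained for DNA and cut out singly by laser 48 h after the dose. In 21 cells micronuclei were seen, which are small bodies of DNA outside the main nucleus, and 14 cells had none. The comparison asks which messages differ between irradiated cells with and without micronuclei; no unirradiated cell is among those analysed here. Every library comes from a single cell. As the labels name neither cultures nor embryos, a group was taken as 1 sample and no p-value is given. Values come with their spread over cells, with 95% Poisson intervals of the summed reads, which cover counting error only, and with the range when each cell is left out. The method, Smart-seq2, copies full-length messages with a poly(A) tail and has no molecular identifiers.

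Total reads on genes ranged from 57514 to 1.79e+06 per micronucleated cell and from 56766 to 2.02e+06 in the other cells, with medians of 281800 and 736715. Detected genes ranged from 2391 to 8964. Of 15 fibroblast markers, 8 or more had at least 5 reads in 34 cells, and micronucleated cell 6 had 3. Micronucleated cell 10 had at least 5 reads of 11 of 12 macrophage markers, at a summed 16506 CPM, the reads scaled so that every cell has an equal total on genes. Of the marker lists of other cell types, 0 endothelial, 0 epithelial, 0 erythroid, 1 macrophage, 2 skeletal muscle and 3 neural genes passed the filter on low counts used below. Mitochondrial reads made up 25.7% of micronucleated cell 18. Their part in the results was not tested, and the closing section gives the results without these cells.

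A ribosome consists of ribosomal RNA and one copy of most of its proteins, so the cell needs the proteins in balanced amounts. Many of their messages begin with a C followed by a run of pyrimidines, the 5′ terminal oligopyrimidine (TOP) tract, through which mTOR signalling controls their translation. Unassembled proteins such as Rpl5 and Rpl11 can bind Mdm2 and so stabilise p53, which is of interest in irradiated cells. Translation itself was not measured here.

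The start regions of the genes are shown first because the pyrimidine tract is a sequence feature that the choice by name did not use. RefSeq's promoter table (GRCm38.p6) held 56 of the 76 genes, with 66 windows of 300 bases, from 250 before to 50 after each annotated start. The longest run of C or T that reached within 50 bases of the start is in capitals in the following sequences, each read 5′ to 3′ on the gene's strand.
Rps18, chr17:33955643-33955672, minus strand: ttccgCTCTCTCTTCCacaggaggcctaca
Rps6, chr4:86857344-86857373, minus strand: tcgggCCTCTTTTTCgtgacgcctcccagg
Rps27, chr3:90213626-90213655, minus strand: tttcgCTCCTTTCCggcggtgacgacctcc
Rpl18, chr7:45718067-45718096, plus strand: ggccgCTCTTTCCCCgcccactccggcgcg
Rplp2, chr7:141447641-141447670, plus strand: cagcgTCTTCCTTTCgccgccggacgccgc
Rpl35, chr2:39005114-39005143, minus strand: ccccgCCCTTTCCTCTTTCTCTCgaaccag
Rpl27a, chr7:109519186-109519215, plus strand: gtgagCTCCTCCCTTTTCCCTTTCTgccac
Rpl13a, chr7:45128719-45128748, minus strand: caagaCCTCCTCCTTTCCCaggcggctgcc
The windows shown are examples with the run close to the start. In other members it lay farther off, such as 39 bases before the start in Rpl22 and 40 bases after in Rpl41. In the windows shown the run began between 7 bases before and 2 bases after the annotated start. It measured 9 bases in Rps27, which encodes a zinc-finger protein of the small subunit, and 20 bases in Rpl27a, a large-subunit protein.

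A run of at least 8 such bases within 50 bases of the start was present in 54 of the 66 windows, 81.8%, against 35.7% of all 32851 windows in the table. The median longest run was 11 bases, against 7. Starting exactly at the annotated start, at least 5 bases in a row were C or T in 24.2% of the windows, against 4.44% of all. In 13 of the 56 genes the first base was also C, which held for 19.7% of the windows against 2.51% of all. Annotated starts can be off by some bases, so the wider window catches tracts that the exact one misses. A further short motif, CTTCCG, the core that ETS-family factors recognise, was searched on both strands over all 300 bases. It was found in 62.1% of the windows, against 16.9% of all. Its first letters can overlap a pyrimidine run. TATAAA, searched likewise, was found in 9.09% against 13.6%. The motif stands in capitals in these stretches upstream of the start.
Rps6, chr4:86857415-86857444, minus strand: cctctaaagtcaCTTCCGccggctgttctc
Rpl41, chr10:128549206-128549235, minus strand: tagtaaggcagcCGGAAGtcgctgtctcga
Rps18, chr17:33955691-33955720, minus strand: atagccccgcctCTTCCGccaggaatctat
Rpl34, chr3:130730432-130730461, minus strand: tccccgcgtccgCTTCCGtacaacatggcg
These matches describe letters and say nothing about which factor binds.

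A gene was called measured when the summed reads gave 5 CPM or more and 5 cells or more each held 5 reads. This held for 8390 genes and for all 76 ribosomal protein genes. In all 35 cells, 73 of the 76 genes had at least 5 reads, a property of 4.15% of the measured genes. The exceptions were Rpl24, with 5 reads in 29 cells, and Rpl13a and Rpl22, with 34 cells each. Every cell had at least 5 reads of 75 or 76 of the genes.

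Levels between genes were compared per kb of exon, with exons merged over all annotated transcripts. The highest was Rplp1, an acidic protein of the stalk that recruits translation factors, at 2700 CPM per kb. Among the 5 highest were also Rplp0, which anchors the stalk, at 1430 and Rpl41 at 1351 CPM per kb. The lowest were Rpl13a at 34.4, Rpl24 at 39.8, Rpl22 at 69.3, Rps15a at 76.7 and Rpl27a at 79.1 CPM per kb. Merged exons include rare transcripts and retained introns and ranged from 383 to 6270 bases, so the order depends on the length used. Per kb of the longest coding sequence, Rpl41, a peptide with a coding sequence of 138 bases, led at 11438 CPM per kb. Rplp1 at 3939 and Rps27 at 3931 came next. Of the 10 highest genes per exon length, 6 were among the 10 highest per coding length, while Rpl13a and Rpl24 were the lowest on that scale too, at 119 and 87.0 CPM per kb.

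Overlaps and copies touch the counting. Exons are shared on the same strand with another annotated gene in 4 members: Rpl13a over 621 bases, Rpl24 over 484, Rps10 over 475 and Rpl19 over 36. They stood at 34.4, 39.8, 148 and 818 CPM per kb of exon. Reads in such overlaps may be left uncounted or split, and the part of this was not tested. Rpl22, Rps15a and Rpl27a are also among the 5 lowest and have no such overlap. Of the 76 genes, 75 share at least one stretch of 50 bases with another annotated gene, and in 35 more than 50% of such stretches are shared; most such copies are processed pseudogenes, a known property of this family. In Rpl23a 85.7% were shared and it stood at 106 CPM per kb. Across the 76 genes the shared percentage and the level per kb of exon had a Spearman's rho of -0.05, and per kb of coding sequence -0.29, a description over genes that are not independent. Whether strand was used in counting is not given in the sources used here, and 18 of the genes overlap an exon on the opposite strand, among them Rps18, Rpl35, Rpl32, Rpl5, Rps28 and Rps27a. Their counts are uncertain to that extent.

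**Figure D1:**
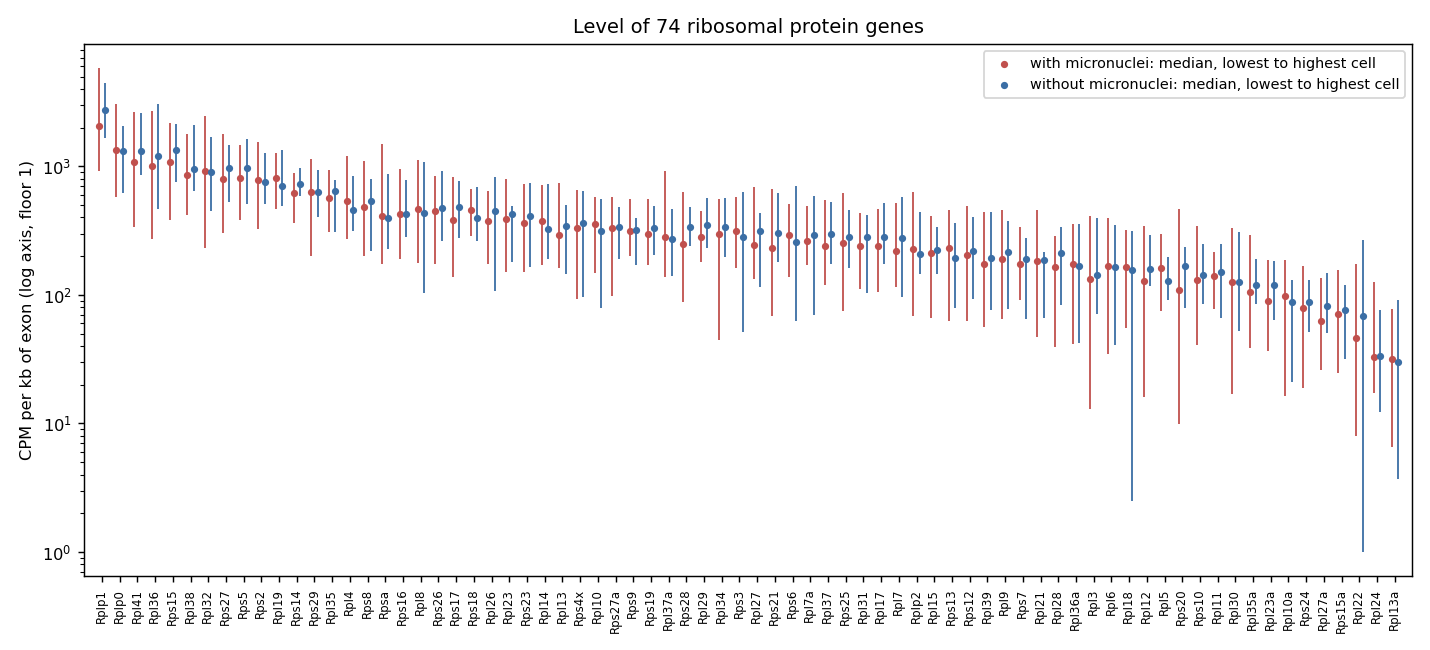
Level of 74 of the 76 ribosomal protein genes in CPM per kb of merged exon on a log axis, ordered by mean. Points are medians over cells, lines run from the lowest to the highest cell, red with micronuclei and blue without; the 2 groups' ranges overlap for every gene drawn, and Rpl22 reaches 0 in 1 cell (drawn at 1).

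The members hold different parts of the pool. The 5 most abundant by reads made up 18.6% of the ribosomal protein reads, 10 made up 32.0% and 20 made up 49.9%. The genes lie on 19 chromosomes, with 14 on chromosome 7. In GRCm38 coordinates of the GENCODE annotation, Rplp1 spans chr9:61913284-61914542, Rplp0 chr5:115559467-115563727 and Rpl41 chr10:128548114-128549305.

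The cell-to-cell spread was small beside that of other genes. The coefficient of variation (CV, SD over mean) of CPM over the 35 cells had a median of 0.403 over the 76 genes, from 0.222 to 0.801, against 1.54 over all measured genes. It was under 0.5 in 64 of the 76, a value that 2.35% of measured genes reached. Abundant genes vary less, so genes of like level are the fairer comparison. Between the lower and upper quartile of the ribosomal protein means, 38 ribosomal protein genes had a median CV of 0.404 and 145 other genes one of 0.570. The CV was under 0.5 in 33 of the former and 39 of the latter. Technical spread was not separated from differences between cells. For 15 spike-ins with mean reads inside the range of the 76 genes, the CV of the share of spike-in reads was 0.269 to 1.95. Its median was 0.727. ERCC-00002 and ERCC-00130, with means of 1269 and 898 reads, had 0.299 and 0.269.

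Rps14, a small-subunit protein near the platform, was the steadiest. Its CPM was 865, 1496 and 2136 in the lowest, median and highest micronucleated cell, and 1415, 1738 and 2319 without micronuclei, for a CV of 0.222. The ranges overlap, and the lowest micronucleated cell lies below all cells without. Rps18, Rpl35 and Rps19, the last a protein mutated in Diamond-Blackfan anaemia, followed with CVs of 0.268, 0.284 and 0.288.

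Rpl22, a large-subunit protein with the paralog Rpl22l1, varied most, with a CV of 0.801. It had 23.4, 133 and 504.2 CPM in the lowest, median and highest micronucleated cell and 0, 198 and 779 without micronuclei. A single cell without micronuclei, cell 5, had no read of it, and cell 1 of that group had the most. Rpl13a and Rps20 had CVs of 0.620 and 0.600, and Rpsa, the laminin receptor precursor of the small subunit, 0.553. Rpl18 was far lower in 1 cell than in the rest of its group, with 10.1, 626 and 1259 CPM without micronuclei and 222, 664 and 1287 with.

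**Figure D2:**
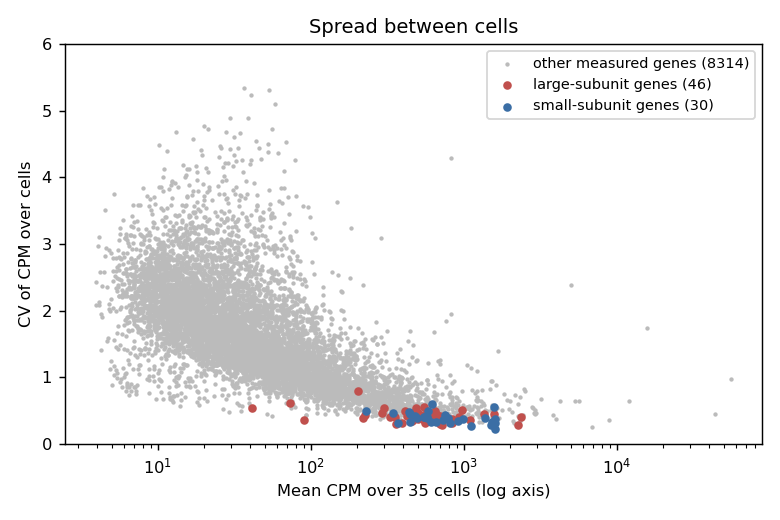
CV of CPM over 35 cells against mean CPM on a log axis for 8390 measured genes, with large-subunit genes in red and small-subunit genes in blue. The 76 genes lie between 0.222 and 0.801, most of them in the lower part of the cloud at their level; Rps20 at 0.600 and Rpl22 at 0.801 lie higher.

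The extremes gathered in few cells. Micronucleated cell 7 had the lowest CPM of 22 of the 76 genes and micronucleated cell 13 of 10, while micronucleated cells 20 and 19 had the highest of 18 and 12. Ribosomal protein genes took 2.75% and 3.62% of gene reads in cells 7 and 13, and 8.65% and 8.76% in cells 20 and 19. These extremes are therefore not separate from the shared total described next. In 61 of the 76 the CV was higher within the micronucleated group, beside 36.5% of measured genes, with medians of 0.428 and 0.345. That group has more cells and a lower median depth, and the part of either was not tested.

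Part of this spread was common to the members. Reads of the 76 genes made up 2.75% to 8.76% of a cell's gene reads. With micronuclei the lowest, median and highest cell had 2.75%, 5.30% and 8.76% (SD 1.61, n = 21), and without 4.204%, 5.46% and 7.47% (SD 0.903, n = 14). The medians differ by less than the SD over cells. Of the micronucleated cells 3 lie above the highest and 4 below the lowest cell without micronuclei, so that group reached further in both directions. Summed over cells, the shares were 4.57% and 5.25%. Micronucleated cells 7, 9 and 13, with 1445750, 953623 and 1794113 gene reads, had shares of 2.75%, 3.04% and 3.62%, and deep cells weigh most in a sum. Divided by each cell's own ribosomal protein total, the genes' median CV fell from 0.403 to 0.309.

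The share moved with the depth and make-up of the library. Over the 35 cells, each a library of its own depth, Spearman's rho with the share was -0.40 for gene reads, 0.54 for the spike-in percentage, 0.54 for the mitochondrial percentage and -0.40 for the fibroblast markers' summed CPM. Without the 2 cells farthest from the median on the x axis, Pearson's r was -0.38, 0.46, 0.61 and -0.31. With genes detected, rho was -0.44 within the micronucleated group and 0.20 within the other. Micronucleated cells had a median of 6.37 ribosomal protein reads per spike-in read, against 2.60, with SDs over cells of 6.79 and 4.05. For gene reads per spike-in read the medians were 115 and 43.8, with SDs of 183 and 85.2. Both pairs of medians differ by less than the SDs, which give the spread of single cells and not the error of a median. The groups overlap, from 0.706 to 24.9 against 0.684 to 15.1 and from 13.3 to 645 against 12.5 to 304. The part of these measures in the share was not tested.

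**Figure D3:**
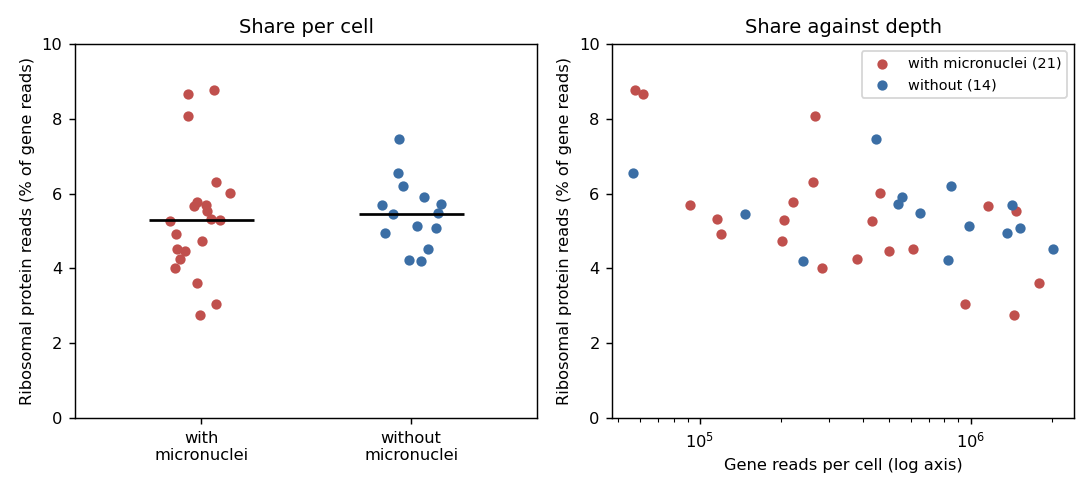
Reads of the 76 ribosomal protein genes as a percentage of gene reads per cell, by group with the median as a bar (left) and against gene reads on a log axis (right). Micronucleated cells range from 2.75% to 8.76% and the others from 4.204% to 7.47%; the 2 cells with the highest shares are among the 3 with the fewest reads.

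The genes moved together over cells. Each gene's CPM was compared with the summed CPM of the other 75, and Spearman's rho had a median of 0.602, from 0.298 to 0.788, over 35 cells. It was at least 0.5 in 58 of the 76 genes, against 1.10% of measured genes, and the median of the other measured genes was -0.07. In the middle range of level used above for the CV, 32 of 38 ribosomal protein genes and 5 of 145 other genes reached 0.5. For the 76 genes the median was 0.681 within the micronucleated group and 0.464 within the other group. These are descriptions, and cells differ in depth. With 31 of the 35 cells thinned to the same depth, the median was 0.526. The 4 shallower cells left out include micronucleated cells 19 and 20, which had the highest shares, so depth is not the only difference. Of the 2850 pairs of members, 98.9% had a rho above 0, with a median of 0.392. Pairs of other genes between the lowest and highest member level had a median of 0.06. Those other genes are not of like level, with a median of 88.3 CPM against 581 CPM for the 76. Pairs within the large subunit had a median of 0.366, within the small subunit 0.428, and between subunits 0.400.

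Rpl32, a large-subunit protein, was most like the total, with rho 0.788, and had 223, 885 and 2377 CPM in the lowest, median and highest micronucleated cell and 435, 868 and 1633 without micronuclei. The small-subunit protein Rps26 followed at 0.773, then Rpl21 at 0.718 and Rpl41 at 0.717. Rpl41 with Rplp1 and Rpl12, a protein at the stalk base, with Rps12 formed the closest pairs, at 0.847 and 0.853. Rpl29 at 0.298, Rpl18 at 0.312, Rpl23a at 0.329 and Rps7 at 0.334 were least like the total. The correlation was higher within the micronucleated group in 63 of the 76 genes, beside 33.2% of measured genes. The other measured genes had a median rho of -0.07 over all cells, so this percentage is no like-for-like background. The ribosomal protein share also spread more widely within the micronucleated group, with the SDs given above. Rps14 had 0.683 there and -0.09 within the other group, and Rpl21 had 0.644 and 0.912. Rpl4, which reaches into the exit tunnel, stood at 0.349, and its rho with Rps29 was the lowest of all pairs, -0.13.

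Of other genes, the most like the total was Fau, which encodes the small-subunit protein eS30 fused to a ubiquitin-like part, with rho 0.729. Txn1, the cytosolic redox protein thioredoxin, followed at 0.719, then the processed pseudogene Gm14586 at 0.687, Gm10076, annotated as a long non-coding RNA, at 0.681, Gm15564 at 0.671 and Pdap1 at 0.661. Of the ribosomal components outside the name rule, Rps3a1 had 0.525 and Rack1 0.320. Pseudogene entries of ribosomal proteins, 0.03% of gene reads in the median cell, had a rho of 0.84 with the share; reads can be assigned between them and the genes, and the part of this was not tested.

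**Figure D4:**
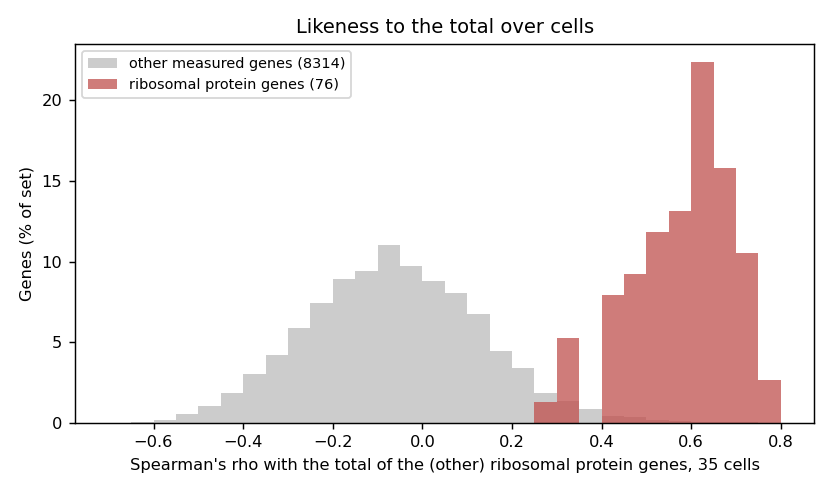
Spearman's rho over 35 cells with the summed CPM of the other ribosomal protein genes, as a percentage of genes in each bin, for the 76 genes (red) and the other measured genes (grey). The 76 lie between 0.298 and 0.788; the median of the others is -0.07.

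Counted in reads, the ratio of the 2 subunits varied little between cells. Sums over 46 and 30 genes average out the spread of single genes, and other splits of the 76 were not compared. Large-subunit reads over small-subunit reads had a lowest, median and highest of 1.02, 1.204 and 1.34 with micronuclei and of 0.999, 1.18 and 1.31 without. The CV over all cells was 0.067, and the medians differ by less than the SDs over cells, 0.082 and 0.075. This ratio did not follow the ribosomal protein share closely, with rho 0.18. Per kb of exon the ratio spread more widely, from 1.19 to 1.92 over all cells with a CV of 0.112.

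Between groups, no ribosomal protein gene differed by 2-fold or more. The log2 ratio, with over without micronuclei, of CPM from summed reads with 1 CPM added, ranged from -0.71 to 0.24 with a median of -0.23, beside 0.15 over all measured genes. At least 2-fold higher were 22.9% and at least 2-fold lower 14.7% of measured genes, and 0 of the 76 on either side. Of 145 other genes of like level, 12 passed 2-fold. Above 0 lay 13 of the 76, where the background was 56.0%, and the remaining 63 lay below 0.

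That direction depends on how cells are weighed. Without micronucleated cell 7, 9 or 13 the median was -0.14, -0.18 or -0.16, and without micronucleated cell 14 it was -0.31. With micronucleated cell 14 or cell 7 without micronuclei left out, 7 genes lay above 0. With equal weight per cell the median was -0.03 and 32 of the 76 lay above 0, beside 52.8% of measured genes. With scran size factors, which scale single cells by pooled totals, the median was 0.04, beside 0.07 over all measured genes, and 44 of the 76 lay above 0, 57.9% beside 53.3%, a share near the background. With TMM scaling of the sums it was -0.37, while the median of all measured genes moved from 0.15 to 0.01. Below 0 in sums, in equal weights and without any single cell were 42 genes, against 20.1% of measured genes, and 4 were above 0 in all of these, against 33.5%. Divided by the ribosomal protein total of each group, the ratios had a median of -0.03. On the log2 scale 75 of the 76 lay within 0.5, and Rps20 was the exception at -0.51. All these ratios compare relative levels. Per spike-in read, the median cell had 6.37 ribosomal protein reads with and 2.60 without micronuclei, with SDs of 6.79 and 4.05 and overlapping groups.

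**Figure D5:**
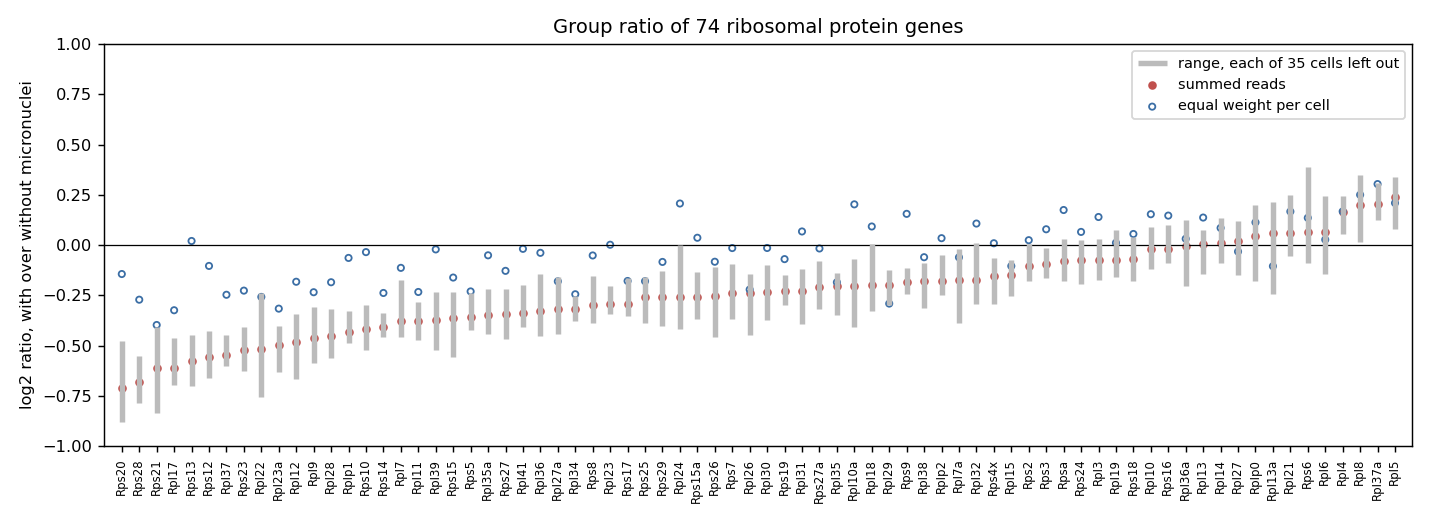
Log2 ratio of 74 of the 76 genes, with over without micronuclei, from summed reads (red), with equal weight per cell (open blue), and the range when each of the 35 cells is left out (grey). Of all 76, 63 lie below 0 from summed reads, 44 with equal weight and 32 with scran size factors (not drawn).

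Among the small-subunit genes, 28 of 30 lay below 0 in summed reads. Rps20, a protein of the head of the subunit, had 40.1, 448 and 1898 CPM in the lowest, median and highest micronucleated cell and 323, 687 and 961 without micronuclei. The groups overlap, and micronucleated cells hold both extremes. Its sums were 390 CPM (378 to 401) and 638 CPM (623 to 652), a log2 ratio of -0.71, but -0.14 with equal weight. Rps28, mutated in some Diamond-Blackfan families, had 151, 431 and 1078 CPM with and 409, 581 and 829 CPM without micronuclei, with log2 ratios of -0.68 and -0.27. Rps21 had 55.3, 186 and 537 CPM with and 145, 247 and 507 CPM without, with log2 ratios of -0.61 and -0.40. Rps6, the S6 kinase substrate, had 217, 461 and 814 CPM with and 98.9, 410 and 1114 CPM without, with log2 ratios of 0.07 and 0.14. Its sign changed when single cells were left out, from -0.09 to 0.39.

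Among the large-subunit genes, 35 of 46 lay below 0 and 11 above. Rpl17, which lines the exit tunnel, had 139, 318 and 618 CPM with and 229, 371 and 687 CPM without micronuclei, with a log2 ratio of -0.61 from sums and -0.32 with equal weight. Rpl37 had log2 ratios of -0.55 and -0.25, Rpl23a of -0.50 and -0.32, and Rpl34 of -0.32 and -0.25. The genes with a ratio above 0 under every weighing and leave-out named above were Rpl5, Rpl37a, Rpl8 and Rpl4. Rpl5, which carries 5S RNA with Rpl11, had 293, 637 and 1168 CPM with and 356, 500 and 777 CPM without micronuclei. Its sums were 616 CPM (602 to 631) and 522 CPM (509 to 536), a log2 ratio of 0.24, and 0.21 with equal weight. Its partner Rpl11 had 209, 377 and 586 CPM with and 178, 405 and 677 CPM without, with log2 ratios of -0.38 and -0.23. For Rpl5 the cells without micronuclei all lie inside the range of the others, and for Rpl11 the reverse holds. Rpl37a, Rpl8 and Rpl4 had log2 ratios of 0.20, 0.20 and 0.16 from sums.

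The stalk proteins Rplp0, Rplp1 and Rplp2 had log2 ratios of 0.05, -0.43 and -0.18 from sums and 0.11, -0.06 and 0.03 with equal weight. Rpl10, which joins the large subunit late, had -0.02 and 0.15, Rps27 -0.34 and -0.13, Rps4x -0.15 and 0.01, and Rps27a, made as a fusion with ubiquitin, -0.21 and -0.02.

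Of 11 members known to bind Mdm2, 10 lay below 0 and 1, Rpl5, above, with a median log2 ratio of -0.25; the 76 genes had -0.23. Of 18 members mutated in Diamond-Blackfan anaemia, 16 lay below 0, with the same median of -0.25. With equal weight per cell the medians were -0.08 and -0.06. The lists were drawn from the same 76 genes and are described only.

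Other genes of translation and ribosome assembly were taken from lists. Of 28 other TOP messages, 17 lay below 0 and 11 above, where 56.0% of measured genes lay above. At least 2-fold higher were 0 and at least 2-fold lower 2, beside 22.9% and 14.7% of measured genes. The median log2 ratio of the 28 was -0.15. Their summed CPM had a rho of 0.61 with the ribosomal protein share. Taken singly, 3 of the 28 genes had a rho of 0.5 or more with the total, beside 1.10% of measured genes. They were Npm1, a nucleolar chaperone, at 0.606, Naca, of the nascent polypeptide-associated complex, at 0.536, and its partner Btf3 at 0.501. Eef2, the translocation factor, had 0.154. Ybx1, an RNA-binding protein, had 262 CPM with and 601 CPM without micronuclei, a log2 ratio of -1.19, and -0.52 with equal weight. Of 42 ribosome biogenesis genes, 23 lay above and 19 below 0. By 2-fold or more, 8 were higher and 12 lower, beside 22.9% and 14.7% of measured genes. Their median level was 72.1 CPM. None of the 42 had a rho of 0.5 or more, which is near the 1.10% of measured genes. Of 14 measured mTOR pathway genes 7 lay above and 7 below 0. At least 2-fold higher were 3 and at least 2-fold lower 2, near the background shares of 22.9% and 14.7%. Tsc2, an mTORC1 inhibitor, had at least 5 reads in 13 cells, with 0, 10.8 and 307 CPM in the lowest, median and highest micronucleated cell and 0, 0 and 64.8 CPM without micronuclei. Its log2 ratio was 2.91 from sums and 2.18 with equal weight. The 2 lower genes were Rptor, the mTORC1 scaffold, at -1.15 and -1.43, and the mTOR inhibitor Deptor at -1.39 and -1.97, with at least 5 reads in 10 and 16 cells.

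Of 5 measured paralogs, 3 lay below 0 and 2 above, and none had a rho of 0.5 or more. Rps27l, a p53 target, had 1248 CPM on average with a CV of 0.334 and a rho of 0.254 with the total; its log2 ratio was -0.42 from sums and -0.31 with equal weight. Rpl22l1, which can stand in for Rpl22, had 80.7 CPM with and 180 CPM without micronuclei, a log2 ratio of -1.14 and -0.47 with equal weight. Rpl22 itself had 116 and 167 CPM, with log2 ratios of -0.52 and -0.26. Their levels are not compared, as the 2 genes differ in length.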

How the data were processed

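Read counts per gene were deposited by the authors as whole numbers for 19085 gene entries and 62 spike-ins in 35 cells; the alignment used STAR and the build GRCm38.p5, per the submitters' processing notes. Per the deposited phenotype table, counting used Rsubread and cells were filtered with scater (spike-ins over 10%, under 2000 genes or under 40000 counts were left out). For versions and strand use, the sources used here give nothing. The phenotype table was not analysed for expression. The files held 0 columns of other samples, 0 of 595 pairs of cells had identical counts, and no doublet caller was run on hand-picked cells.

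CPM scales each cell's reads to a common total on genes, spike-ins left out; sums were 11084425 reads with and 11612303 without micronuclei. The log2 ratio adds 1 CPM. Thinning drew 115191 reads from each of 31 cells (18 and 13; 4 shallower cells were left out). Exons, overlaps and shared stretches of 50 bases came from GENCODE vM21. Python 3.11.15 with numpy 2.4.6, pandas 2.3.3 and scipy 1.17.1 was used, with edgeR 4.0.16 for TMM and scran 1.30.0 for size factors; the code was checked on simulated data. Members, lists and the naming rule (the 5 highest and 5 lowest per length, the 4 lowest and 4 highest in CV, the 4 most and 4 least like the total, up to 6 higher and 6 lower by the smallest ratio of 1 sign, and a fixed set) were chosen with earlier results of these data known. Of the members, Rps29, Rpl12 and Rps12, and the TOP genes Npm1, Naca, Btf3 and Eef2, like Rptor, Deptor, Rps10, Rpl19 and the genes of the other observations, were named after their values were seen. Only 4 members met the rule for higher. Some items, among them 2 members, enter the counts and medians but are not reported here or drawn by name.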

Additional observations from a re-analysis of the deposited data

How the results depend on the processing

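No paired analysis was possible because the labels give the cells no shared replicate numbers. The list median of -0.23 became -0.034 with equal weight per cell, -0.10 as a mean of log2 CPM, -0.37 with TMM, -0.15 with thinned cells and 0.037, a change of sign, with scran size factors. Members above 0 numbered 32, 29, 4 and 44 under equal weight, the log2 mean, TMM and scran, beside 52.8%, 63.9%, 50.4% and 53.3% of all measured genes, and those below 0 numbered 32 with scran. The CV was 0.309 as a share of the pool. The correlation with the total was 0.464 in cells without micronuclei. The median subunit ratio was 1.36 with and 1.37 without micronuclei per kb of exon, where its CV over all cells was 0.112 against 0.067 in reads. Of the 10 highest genes per length, 6 stayed with the longest coding transcript and 6 with the longest coding sequence, the latter chosen after seeing the data.

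Without each cell in turn, the list median ran from -0.31 (without micronucleated cell 14) to -0.14 (without micronucleated cell 7), members above 0 from 7 (without micronucleated cell 14 or cell 7 without micronuclei) to 19 (without micronucleated cell 7), and members below 0 from 57 to 69. The 2-fold count was 0 throughout. The share ran from 5.28% to 5.31% with and from 5.46% to 5.47% without micronuclei, the median CV from 0.390 to 0.408, the correlation from 0.570 to 0.620 and the subunit ratio from 1.19 to 1.21 and stayed at 1.18. The 10 highest per length were the same 10.

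Over 13 alternatives, 44 of 507 values of the 39 named members changed sign; 10 of these members had been named for a ratio of 1 sign, so their sign is no measure of stability. Leaving out 6 cells (fewer than 4000 genes, or more than 9% of reads mitochondrial) gave a list median of -0.25 with 12 members above 0, a median CV of 0.395, a correlation of 0.699 and shares of 4.92% and 5.46%. Leaving out the 4 cells with 2 or more macrophage markers gave -0.23 with 13 above 0, 0.400, 0.617, 5.30% and 5.46%. Both were chosen after seeing the data. On other scales, the median SD of log2 CPM over cells was 0.59 for the 76 genes and 2.57 for all measured genes. Depth limits Rpl24 and Rpl13a most, with 910 and 1365 reads over all cells.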

Other observations

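An entry annotated as ribosomal RNA, CT010467.1 (chromosome 17, 39846353 to 39848827, minus strand), took a mean of 55486 CPM, with a lowest, median and highest of 1554, 28780 and 239195 CPM in micronucleated cells and 15749, 45621 and 138745 CPM in the others. Its rho with the ribosomal protein total over the 35 cells was 0.620, and that of Lars2, a mitochondrial leucyl-tRNA synthetase, 0.617. The protocol copies poly(A) messages, so this entry is no measure of ribosome number. Its part in the ribosomal protein share was not tested.

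Genes that ran against the ribosomal protein total included Maoa, a monoamine oxidase of the mitochondrial outer membrane, with rho -0.69, and the extracellular matrix gene Ccdc80, with -0.59. Maoa had at least 5 reads in 17 cells, so many of its values are tied at or near 0. Ccdc80 had 0, 190 and 1061 CPM in the lowest, median and highest micronucleated cell and 0, 219 and 1084 CPM in the others.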
